A study of Mus musculus with 2 samples.

Results

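The CDK inhibitor genes are the 8 mouse genes Cdkn1a, Cdkn1b, Cdkn1c, Cdkn2a, Cdkn2b, Cdkn2c, Cdkn2d and Cdkn3, taken by symbol from the 43346 genes that the tables list. They were measured in MEL cells, an established mouse erythroleukemia line that grows as red cell precursors blocked before maturation. Polyadenylated RNA was sequenced single-end in 1 group of 2 samples, which the labels call biological replicates 1 and 2 of the same line. The labels name no treatment, genotype change, passage or clone, so no condition was compared with another, and the spread below is that between these samples only. The depth was 67735380 expected counts (estimated reads of a gene, summed over genes) in replicate 1 and 79923143 in replicate 2. For a gene with 0 counts, the limits on its share of reads were 4.43e-06% and 3.75e-06%, for counting error only.

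Cyclin-dependent kinases (CDKs) drive cells from growth into DNA replication and then into division, and the inhibitor genes encode proteins that hold them back. The INK4 proteins p16Ink4a, p15Ink4b, p18Ink4c and p19Ink4d bind the kinases CDK4 and CDK6 and keep D-type cyclins off them. The CIP/KIP proteins p21Cip1, p27Kip1 and p57Kip2 bind cyclin-CDK complexes, those of CDK2 above all. Cdkn2a has a second product, p19Arf, which inhibits no CDK and instead holds the ubiquitin ligase MDM2 away from p53. Cdkn3 belongs to neither family: it encodes KAP, a phosphatase that acts on CDK2 and CDK1. In red cell precursors, p27Kip1, p18Ink4c and p19Ink4d are known for their part in cell cycle exit during maturation.

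Cdkn2a, on the minus strand of chromosome 4 (ENSMUSG00000044303.6; mm10, 89274471-89294653), has 2 listed transcripts, and the data bear on which of them was made. Cdkn2a-202, the p19Arf form, starts at the distal exon 1-beta, and Cdkn2a-201, the p16Ink4a form, starts at exon 1-alpha. The coding parts of both first exons are shown because reads over these exons tell the forms apart. Both are written 5′ to 3′ on the minus strand of mm10, chr4:89294334-89294523 for exon 1-beta and chr4:89281986-89282111 for exon 1-alpha, with the start codon in capitals.
p19Arf, exon 1-beta: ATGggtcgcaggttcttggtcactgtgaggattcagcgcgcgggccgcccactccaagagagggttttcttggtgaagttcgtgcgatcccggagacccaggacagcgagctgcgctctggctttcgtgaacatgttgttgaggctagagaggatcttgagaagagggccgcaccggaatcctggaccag
p16Ink4a, exon 1-alpha: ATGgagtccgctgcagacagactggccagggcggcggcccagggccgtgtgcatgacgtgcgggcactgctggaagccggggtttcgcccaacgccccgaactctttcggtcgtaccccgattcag
The coding part of exon 1-beta has 190 bases, which leaves 1 base over after whole codons, and that of exon 1-alpha has 126, which leaves 0. Both forms then share exon 2, which they read in different frames. Its first 60 bases (chr4:89276926-89276985) are shown once for each form, with capitals on the first base of each codon.
Exon 2 in the p19Arf frame: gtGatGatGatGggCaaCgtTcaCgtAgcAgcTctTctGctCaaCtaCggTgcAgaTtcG
Exon 2 in the p16Ink4a frame: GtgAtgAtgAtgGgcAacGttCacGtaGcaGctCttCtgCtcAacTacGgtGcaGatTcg
The first whole codon in exon 2 starts at base 3 for p19Arf and at base 1 for p16Ink4a. The forms share 317 coding bases there and encode proteins of 169 and 168 codons. A read inside exon 2 therefore counts for the gene but cannot by itself be given to either protein.

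**Figure D1:**
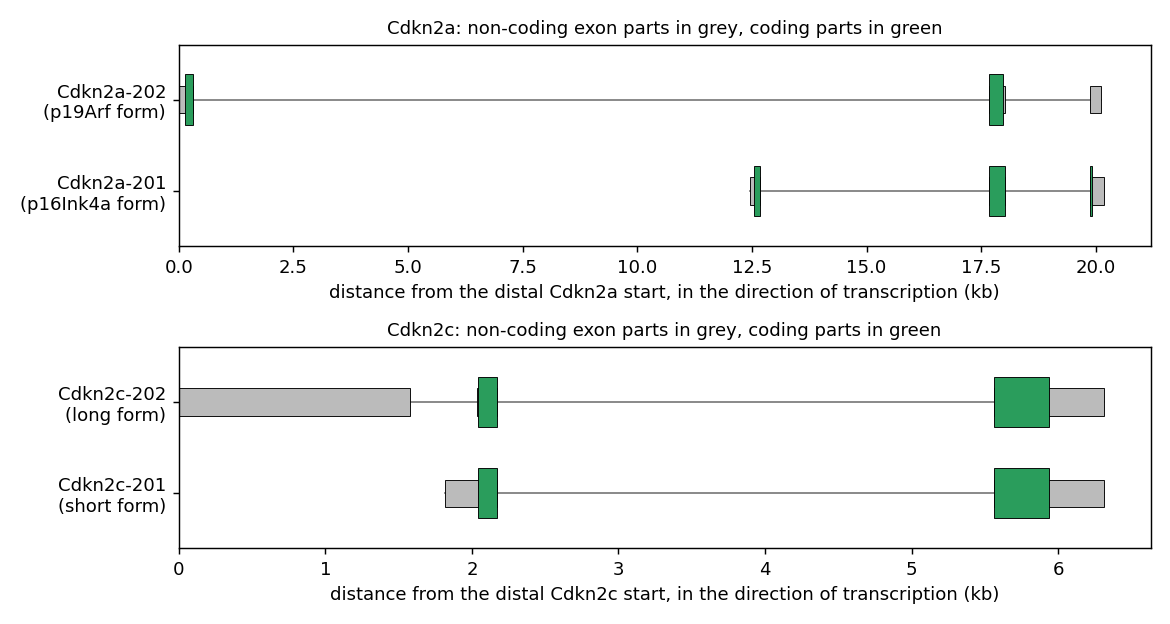
Exon layout of the Cdkn2a and Cdkn2c transcripts, with the distance from the distal start in kb on the horizontal axis and 1 transcript per row. Coding parts (green, tall) of exon 2 are shared by both Cdkn2a forms, while each form of either gene has a first exon of its own.

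Of the 8 genes, 7 reached 1 TPM (a gene's share of all transcripts, corrected for their length) in both replicates and 6 reached 10 TPM. Among all 21474 protein-coding genes the shares were 46.8% at 1 TPM and 31.4% at 10 TPM. The median of the members' mean TPM was 16.3 (19.4 in replicate 1 and 15.3 in replicate 2), and that of all protein-coding genes was 0.49. Together the members held 273.99 TPM in replicate 1 and 385.33 in replicate 2, of which Cdkn2a took 59.7% and 69.8%. Since the RNA comes from whole cultures, fewer cells that express a gene and less RNA per cell cannot be told apart. Of 15 erythroid markers 14 reached 1 TPM in both replicates, Slc4a1 being the exception, and none of 7 myeloid, 5 lymphoid and 5 fibroblast and endothelial markers did, while all 4 megakaryocyte markers did (summing to 168.9 and 252.1 TPM).

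Cdkn2a was the highest member, at 163.6 TPM in replicate 1 and 268.97 in replicate 2 (216 ± 74.5, SD, n = 2). This lay above 97.1% of protein-coding genes, at rank 613, and both values lay above those of every other member. Its neighbour Cdkn2b (ENSMUSG00000073802.4; minus strand of chromosome 4, 89306299-89311039), which lies 11646 bp away and encodes p15Ink4b, was the lowest. Cdkn2b stood at 0.93 and 1.44 TPM, from 58 and 114 counts, and so missed 1 TPM in replicate 1. Cdkn2a exceeded Cdkn2b 167-fold (log2 ratio 7.38 ± 0.10, n = 2). On the other side, Mtap, a gene of methionine salvage 93390 bp away, stood at 59.93 and 34.4 TPM, and Dmrta1, beyond Cdkn2b, at 0.04 and 0.06.

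Within Cdkn2a, the p19Arf form measured 131.22 TPM in replicate 1 against 249.26 in replicate 2. The p16Ink4a form stood at 32.38 and 19.71 TPM. The p19Arf form was thus the higher in both, 4.05-fold in replicate 1 and 12.6-fold in replicate 2 (log2 ratio 2.84 ± 1.16, n = 2), and held 80.2% and 92.7% of the gene's TPM. Between the replicates the forms went opposite ways: the p19Arf form was 1.9 times as high in replicate 2 as in replicate 1, and the p16Ink4a form 1.64 times as high in replicate 1. The expected counts behind them were 5145.43 and 12485.37 for the p19Arf form and 1205.57 and 937.63 for the p16Ink4a form, with deposited posterior SDs of 45.34 and 59.04 for either. The deposited credibility bounds of the p16Ink4a form, 28.6 to 34.4 TPM in replicate 1 and 16.6 to 21.9 in replicate 2, did not overlap. These bounds describe only how surely reads were divided within 1 library.

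The bases found in 1 form alone are few. They are 320 for the p19Arf form, all in exon 1-beta (GC content 63.8%). For the p16Ink4a form they are 207 in exon 1-alpha (65.2%) and 70 at the far 3′ end (32.9%). The latter are its own because the annotated p19Arf form ends before them, at 89274541. Reads over these 70 bases also count for the p16Ink4a form. Their part in its level, also in the INK4 sum below, was not tested. Taken as a rank of their own among the members, the p16Ink4a form at 26 ± 8.96 TPM (n = 2) was of the size of Cdkn2c and Cdkn2d, and the p19Arf form at 190.2 ± 83.5 carried the lead of the gene.

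**Figure D2:**
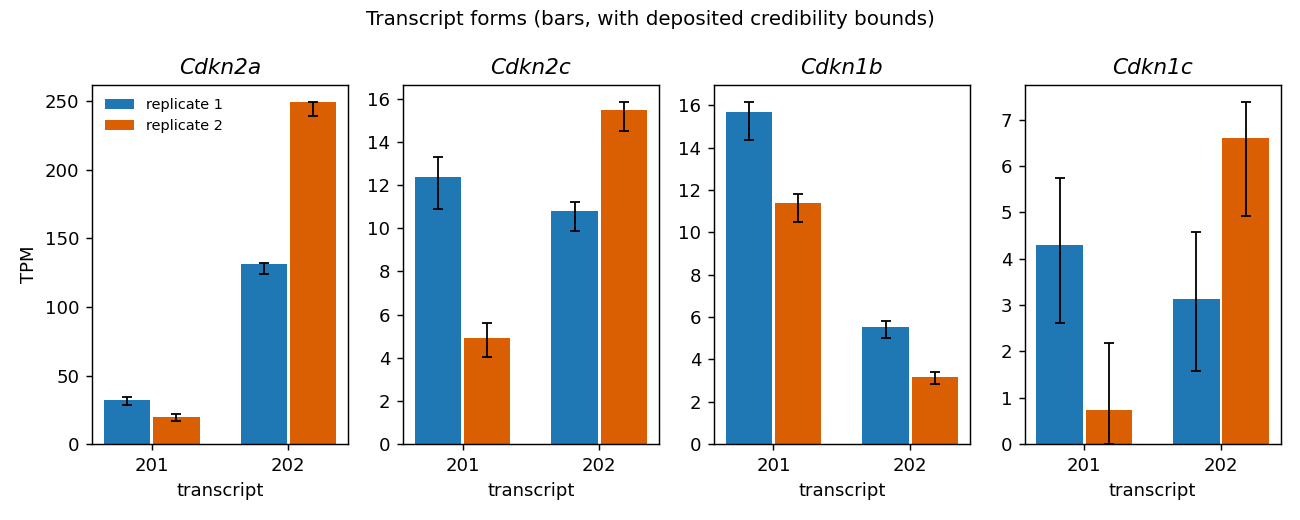
TPM of each transcript (bars, named by transcript number) of Cdkn2a, Cdkn2c, Cdkn1b and Cdkn1c in replicates 1 and 2, with the deposited credibility bounds as whiskers. Cdkn2a-202 is the higher form of Cdkn2a in both replicates, while the higher form of Cdkn2c is Cdkn2c-201 in replicate 1 and Cdkn2c-202 in replicate 2.

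The windows around the RefSeq start sites of the 2 forms are shown because the forms begin at separate promoters (GRCm38.p6, minus strand, 250 bases before to 50 after the start). Capitals mark matches, on either strand, to the GC box GGGCGG, bound by Sp1-type factors, and to the E2F-type letters TTTCCCGC or TTTCGCGC or TTTGCCGC or TTTGGCGC.
p19Arf start, chr4:89294570-89294869: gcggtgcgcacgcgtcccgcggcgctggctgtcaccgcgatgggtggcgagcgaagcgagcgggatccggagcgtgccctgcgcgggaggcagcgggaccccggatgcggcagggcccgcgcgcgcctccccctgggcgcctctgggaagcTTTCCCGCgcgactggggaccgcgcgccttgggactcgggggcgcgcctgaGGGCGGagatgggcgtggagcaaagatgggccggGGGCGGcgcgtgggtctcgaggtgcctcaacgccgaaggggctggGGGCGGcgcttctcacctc
p16Ink4a start, chr4:89282143-89282442: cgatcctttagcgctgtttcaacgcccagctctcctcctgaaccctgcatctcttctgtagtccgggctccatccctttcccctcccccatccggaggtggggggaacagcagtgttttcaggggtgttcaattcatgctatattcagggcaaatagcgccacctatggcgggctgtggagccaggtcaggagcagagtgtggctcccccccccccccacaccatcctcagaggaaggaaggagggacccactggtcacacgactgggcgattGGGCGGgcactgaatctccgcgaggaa
The p19Arf window held 3 GC boxes, 1 E2F-type match and 45 CpG dinucleotides, with a GC content of 77%. The p16Ink4a window held 1 GC box, 0 E2F-type matches and 12 CpG dinucleotides, at 60.3% GC. Of 32851 RefSeq windows of the same length, 35.7% held a GC box and 2.26% an E2F-type match. The p19Arf window had more CpG dinucleotides than 98.1% of them, and the p16Ink4a window more than 60.4%. The TATA box TATAAA, held by 13.6% of all windows, had 0 matches in both. The letters AGATAA, bound by GATA factors and held by 11.2%, had 0 as well, and so did the PU.1-type letters GAGGAAGT, held by 3.2%. A match describes letters and does not show a bound site.

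Cdkn2d, which encodes p19Ink4d (ENSMUSG00000096472.1; minus strand of chromosome 9, 21288410-21291407), was the second highest gene, at 29.57 and 44.85 TPM (37.2 ± 10.8, n = 2). Both values lay above those of Cdkn2c. The tables list only 1 transcript of Cdkn2d, whereas GENCODE M21 has 3. The listed one, Cdkn2d-201, encodes 50 codons in M21, and those of 163 and 166 codons are not in the tables, so the level, also in the INK4 sum below, is that of the gene and does not tell these forms apart. Kri1, a ribosome biogenesis gene that begins 441 bp past the end of Cdkn2d on the same strand, stood at 152.62 and 161.82 TPM.

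Cdkn2c, which encodes p18Ink4c (ENSMUSG00000028551.10; minus strand of chromosome 4, 109660876-109667189), stood at 23.17 and 20.39 TPM (21.8 ± 1.97, n = 2). Its total moved little while the order of its forms by TPM changed. The short form Cdkn2c-201 measured 12.37 TPM in replicate 1 but 4.92 in replicate 2, and the long form Cdkn2c-202 measured 10.8 and 15.48. The short form therefore held 53.4% of the gene's TPM in replicate 1 and 24.1% in replicate 2 (38.8% ± 20.7, n = 2). By expected counts, which are not corrected for length, it held 33.4% and 12.2% (22.8% ± 15, n = 2), so that the long form was then the higher in both replicates. The deposited bounds did not overlap for either form: 10.89 to 13.28 TPM against 4.04 to 5.63 for the short form, and 9.87 to 11.21 against 14.48 to 15.84 for the long one. Both forms encode the same 168 codons, so the change concerns only the untranslated part of the message.

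The short form of Cdkn2c starts inside the first intron of the long form and has 215 bases of its own there (chr4:109665158-109665372; GC content 49.8%). The long form has 1580 bases of its own in its first exon (66.2%). Its share was 29.3 percentage points higher in replicate 2 than in replicate 1. Among 700 genes with 2 listed transcripts and at least 10 TPM in both replicates, the median shift was 3.29 points, and 9.71% of genes had a larger one. Cdkn2a, with 12.5 points, was exceeded by 23.9% of them. In 416 of 682 such genes with a known GC content (61%), the form with more GC gained share in replicate 2, in 241 it lost share, and in 25 the share was equal. The shift and the difference in GC content were only weakly related across these genes (Spearman's rho 0.102). The long form of Cdkn2c and the p19Arf form of Cdkn2a are the richer in GC of their genes (58% against 44.8%, and 60.2% against 57.9%), and the part of base composition in these shifts was not tested. Through the longer mean transcript, 1742.1 nt in replicate 1 and 2141.94 nt in replicate 2, Cdkn2c was lower in replicate 2 by TPM but 1.08-fold higher by scaled counts.

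The window around the start of the short form of Cdkn2c is shown to set its base composition beside that of the long form, since the listed shares of both differed between the replicates.
Cdkn2c short form start, chr4:109665323-109665622, minus strand: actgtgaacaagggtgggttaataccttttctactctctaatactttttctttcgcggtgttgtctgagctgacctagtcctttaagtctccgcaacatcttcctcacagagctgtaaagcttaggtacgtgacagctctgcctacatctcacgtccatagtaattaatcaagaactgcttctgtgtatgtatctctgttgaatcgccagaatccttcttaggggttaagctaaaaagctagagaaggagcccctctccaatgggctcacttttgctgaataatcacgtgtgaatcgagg
This start has a GC content of 44% and 8 CpG dinucleotides, and none of the motifs above matched in it. The window at the RefSeq start of the long form, 109666707-109667006 on the same chromosome, has a GC content of 73.3%, 33 CpG dinucleotides and 4 GC boxes. That RefSeq start, at 109666756, is not the start of the listed long form, which lies at 109667189. The whole window falls inside the first exon of the listed long form. Among the other members, the window of Cdkn2d held 5 GC boxes and 22 CpG dinucleotides, that of Cdkn3 4 and 25, that of Cdkn1b 1 and 30, and that of Cdkn2b 1 and 18. Of the 2 windows of Cdkn1a, the one at the start of Cdkn1a-201 held 2 GC boxes and 23 CpG dinucleotides, and the other 0 and 2. The PU.1-type letters matched 1 time, in the window of Cdkn3, and the median of all windows was 7 CpG dinucleotides. Cdkn1c had no window.

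Of the CIP/KIP genes, Cdkn1b, which encodes p27Kip1 (ENSMUSG00000003031.10; plus strand of chromosome 6, 134920401-134925513), stood at 21.23 and 14.57 TPM (17.9 ± 4.71, n = 2). Cdkn1a, which encodes the p53 target p21Cip1 (ENSMUSG00000023067.9; plus strand of chromosome 17, 29090976-29100727), stood at 10.4 and 15.94 (13.2 ± 3.92). Their order turned between the replicates, with Cdkn1b the higher in replicate 1 and Cdkn1a in replicate 2. Cdkn1c, which encodes p57Kip2 (ENSMUSG00000037664.8; minus strand of chromosome 7, 143458339-143461050), was the lowest of the family at 7.44 and 7.35 TPM (7.4 ± 0.0636). By TPM, Cdkn1c had the smallest spread of the members, although with the trend by GC content described below removed its difference between replicates was the largest of the 8 (log2 -0.81). Both its values lay below every value of Cdkn1a and Cdkn1b.

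Cdkn1b-201 held 73.9% and 78.1% of the TPM of Cdkn1b. Cdkn1b-202, which keeps 2159 bases after the stop codon (chr6:134922084-134924242) that Cdkn1b-201 splices out, held 26.1% and 21.9%, and both encode 197 codons. Cdkn1b-201 has 0 bases of its own, so only reads across this splice belong to it alone. Of expected counts instead of TPM, Cdkn1b-202 held 37.6% on average. Cdkn1a-201 held 98.6% and 99% of Cdkn1a, and Cdkn1a-203 the remaining 1.44% and 1%, while Cdkn1a-202 stood at 0. All 3 encode 159 codons. Cdkn1c-201 held 57.8% in replicate 1 and 10.1% in replicate 2, and Cdkn1c-202 the rest. These Cdkn1c forms are told apart by 54 and 41 bases in GENCODE M21, their listed lengths differ from those of M21, and the posterior SD of 67.28 and 67.74 counts nearly reached the 80.28 counts of Cdkn1c-201 in replicate 2. The bounds of Cdkn1c-202, 1.58 to 4.58 and 4.91 to 7.38 TPM, did not overlap but lay close to each other.

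Cdkn3, the phosphatase gene (ENSMUSG00000037628.9; plus strand of chromosome 14, 46760541-46771669), stood at 17.65 and 11.82 TPM (14.7 ± 4.12, n = 2), from 593 and 507 counts. Cdk1, whose product KAP dephosphorylates, exceeded it 12.1-fold (log2 ratio of Cdkn3 over Cdk1 -3.60 ± 0.28). The tables list 1 transcript of Cdkn3.

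In the order of mean TPM, from Cdkn2a through Cdkn2d, Cdkn2c, Cdkn1b, Cdkn3, Cdkn1a and Cdkn1c to Cdkn2b, some neighbours could not be told apart. Cdkn2c and Cdkn1b overlapped in their replicate values, as did Cdkn1b and Cdkn3, and Cdkn3 and Cdkn1a. The steps from Cdkn2a to Cdkn2d (5.81-fold), from Cdkn2d to Cdkn2c (1.71-fold), from Cdkn1a to Cdkn1c (1.78-fold) and from Cdkn1c to Cdkn2b (6.24-fold) had no overlap. With 2 values per gene, a lack of overlap is weak evidence that 2 genes differ. By the log2 ratios below, Cdkn2c over Cdkn2d (-0.74) and Cdkn1a over Cdkn1c (0.79) stayed within the spread of single genes between replicates.

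**Figure D3:**
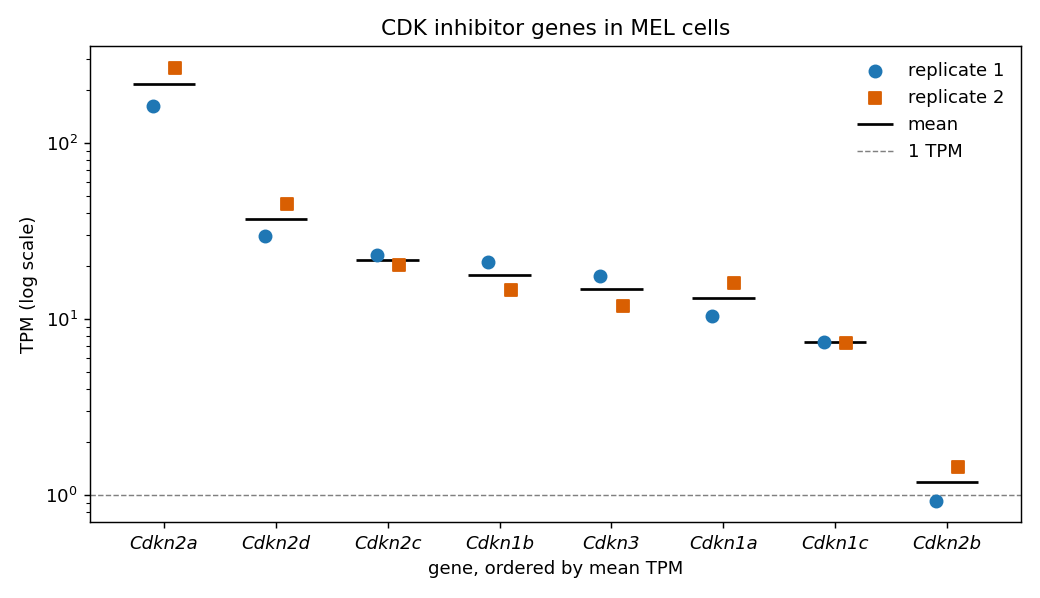
TPM of the 8 CDK inhibitor genes on a log axis, with replicate 1 as circles, replicate 2 as squares, the mean as a bar and 1 TPM as a dashed line. Cdkn2a stands apart at the top (163.6 and 268.97) and Cdkn2b at the bottom (0.93 and 1.44), with Cdkn2c, Cdkn1b, Cdkn3 and Cdkn1a close together between them.

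With Cdkn2a entered through its p16Ink4a form alone, the INK4 transcripts summed to 86.05 TPM in replicate 1 and 86.39 in replicate 2. The CIP/KIP genes summed to 39.07 and 37.86 TPM, so that INK4 exceeded CIP/KIP 2.2-fold and 2.28-fold. The sums were nearly equal between replicates although the members were not: a lower p16Ink4a form in replicate 2 stood beside a higher Cdkn2d.

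Of the 13 kinase and cyclin genes whose products the inhibitors bind, 11 reached 10 TPM in both replicates, with a median of mean TPM of 74.8 against 16.3 for the inhibitor genes. The ranges overlapped: by mean, Cdkn2a at 216 TPM lay above all but Cdk4 and Ccnd3. In replicate 1, at 163.6 TPM, it also lay below Cdk1, Ccnb1 (171.61) and Ccna2 (167.32). Most of this TPM was the p19Arf form, which inhibits no CDK. The p16Ink4a form, at a mean of 26 TPM, lay above only Ccnd1 and Ccna1. The highest were Cdk4 at 921.94 and 994.16 TPM, the D-type cyclin gene Ccnd3 at 185 and 427.89, and Cdk1 at 187.16 and 165.02. The lowest were Ccnd1, at 0.28 and 0.27, and Ccna1, the cyclin A of germ cells, with 0 counts in both. Cdk4 plus Cdk6 exceeded the INK4 sum 11.4-fold in replicate 1 and 11.9-fold in replicate 2, and the 3 D-type cyclins exceeded it 3.26-fold and 5.89-fold. Of the 12 genes tested between the replicates, 1 was called, Ccne2 (83.88 and 26.79 TPM), against 19.5% of all genes. These are amounts of RNA and not of protein.

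Ratios between single genes were read against how far single genes moved between the replicates. Over 11655 genes with at least 1 TPM in both, 95% of absolute log2 ratios of replicate 2 over replicate 1 were at most 1.40 (2.64-fold). Of 16 ratios, all taken as log2 of TPM plus 0.1, 9 kept their sign in both replicates and were larger on average. The limit describes 1 gene between 2 libraries, not 2 genes within 1 library. How many other gene pairs exceed it was not counted, so the 9 have no background share. Cdk4 exceeded Cdkn2c 43.8-fold (log2 5.45 ± 0.21, n = 2) and Cdkn2d 26.2-fold (4.71 ± 0.35). Cdkn2c exceeded Cdkn2b 17.3-fold (4.12 ± 0.54). Cdkn2a, as a whole gene with its p16Ink4a form included, exceeded Mdm2, whose product p19Arf binds, 5.55-fold (2.47 ± 0.88). Cdk2 exceeded Cdkn1a 3.5-fold (1.81 ± 0.22).

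For 2 of the 9 the call rested on 1 replicate. Mdm2, like Cdkn1a a target of p53, exceeded Cdkn1a 2.91-fold (log2 1.54 ± 0.81), but without replicate 1 the ratio of 0.97 was inside the spread. Skp2, which targets p27Kip1 for destruction, exceeded Cdkn1b 2.75-fold (1.46 ± 0.30), and without replicate 2 the ratio of 1.25 was inside it. The other 7 ratios did not exceed the spread. They were Cdk2 over Cdkn1b at 1.36 ± 0.59, Cdkn1b over Cdkn1c at 1.24 ± 0.37, Cdkn2d over Cdkn1b at 1.05 ± 0.81, Cdkn1a over Cdkn1c at 0.79 ± 0.44, Cdkn1b over Cdkn1a at 0.45 ± 0.81, Cdkn2c over Cdkn1b at 0.30 ± 0.25 and Cdkn2c over Cdkn2d at -0.74 ± 0.55. With 2 replicates an exact sign-flip test cannot go below a two-sided p of 0.5, so no p is given for ratios.

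**Figure D4:**
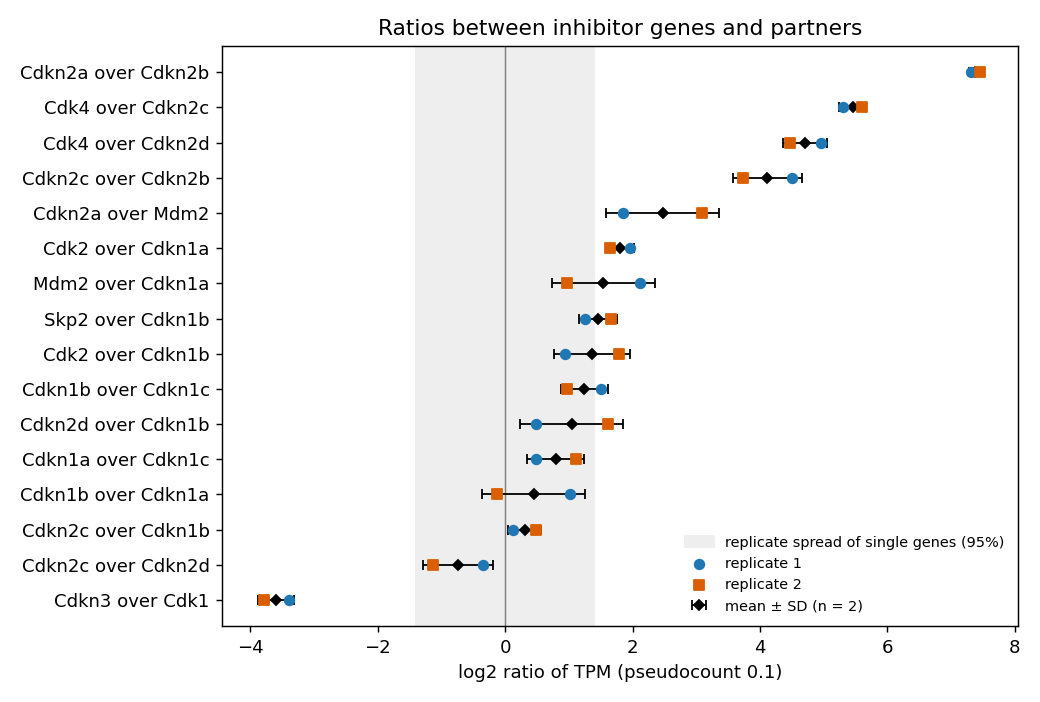
Log2 ratio of TPM (pseudocount 0.1) of 16 pairs of genes, with replicate 1 as circles, replicate 2 as squares and mean ± SD (n = 2) as diamonds. The grey band spans -1.40 to 1.40, the 95% range of single genes between replicates, and 9 means lie outside it.

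The members differed between the replicates by about as much as other genes did. At an adjusted p under 0.05 and at least 2-fold, 0 of 8 members were called by the exact two-sided conditional binomial test (TMM scaling from edgeR, Benjamini-Hochberg over 15251 genes), against 19.5% of all genes tested, 7.57% higher in replicate 2 and 11.9% higher in replicate 1. By the unadjusted p under 0.05 of the same test the count was 7 of 8, and the share of all genes at that threshold is not given here. Likewise 7 of 8 had an adjusted p under 0.05 whatever the fold, as did 77.2% of all genes, since the test knows only counting error. edgeR's exact test with a dispersion from both libraries called 0 of 8 members and 0.787% of genes. At an unadjusted p under 0.05 it found 0 members, and the share of all genes there is not given either. Its dispersion came from the same 2 libraries that it compared, so their difference was itself counted as spread. This count of 0 therefore cannot show that the members did not differ. Both tests compare 2 libraries and no conditions.

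Scaled counts of Cdkn2a were 1.65-fold higher in replicate 2 (log2 0.72, adjusted p 1.58e-246 by the binomial test), from 6351 and 13423 counts. Cdkn2b, Cdkn1a and Cdkn2d were also higher there, by 1.53-fold, 1.53-fold and 1.51-fold. Cdkn1b and Cdkn3 were higher in replicate 1, by 1.51-fold and 1.5-fold. Cdkn1c, with 639 and 815 counts, had a log2 ratio of -0.01 and an adjusted p of 0.952 by the binomial test. The median absolute log2 ratio was 0.595 for the members and 0.588 for all genes tested.

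GC content moved with these differences. Across 15102 genes the log2 ratio of replicate 2 over replicate 1 rose with GC content (Spearman's rho 0.747; genes are no independent replicates, so no p is given). The fitted trend ran from -0.65 at 45% GC to 0.52 at 55%. Cdkn1b (44.1% GC) and Cdkn3 (47.5%) lay on the low side, and Cdkn2a (59%), Cdkn2d (57.3%) and Cdkn2b (55.9%) on the high side. With the trend removed, the log2 ratio became -0.05 for Cdkn2a, -0.10 for Cdkn2d, 0.01 for Cdkn2b, 0.15 for Cdkn1b and -0.22 for Cdkn3, so the direction turned for Cdkn2a, Cdkn2d and Cdkn1b. Cdkn1c was the richest in GC at 60.1% by the mean over each gene's transcripts in GENCODE M21. Its listed forms, Cdkn1c-201 and Cdkn1c-202, had 59.4% and 59%, below the 60.2% of the p19Arf form. With the trend removed, Cdkn1a kept 0.27 and Cdkn1c went to -0.81. The median absolute log2 ratio of the members was then 0.122, and 0 of 8 were called, against 7.85% of genes. By the binomial test 5 of 8 still had an adjusted p under 0.05 whatever the fold. For all genes, neither that median nor that share after removal of the trend is given here. The TPM values above carry this trend too.

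**Figure D5:**
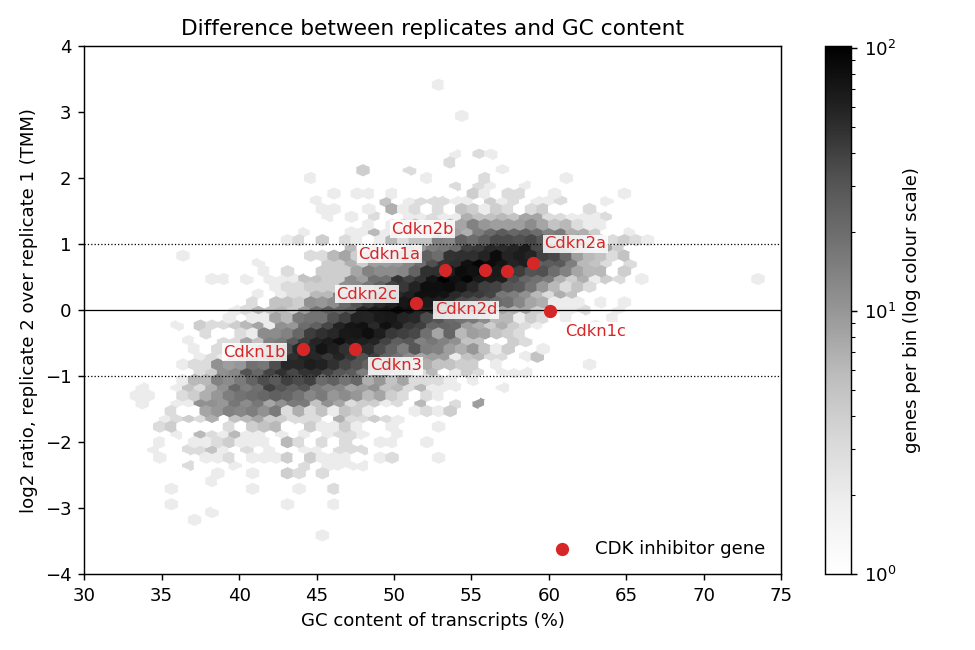
Log2 ratio of replicate 2 over replicate 1 (TMM-scaled counts, vertical axis) against the GC content of the transcripts in percent, with all tested genes as grey bins and the 8 members as red points. The members lie along the rising band of all genes, except Cdkn1c at 60.1% GC and a ratio near 0.

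No reads of the 8 genes were divided with other genes, as the deposited posterior SD of the gene count was 0 for each in both libraries. Among the 28 pairs of members the longest run of identical bases was 23 nt, for Cdkn2a with Cdkn2b and for Cdkn1a with Cdkn1b, while the effective lengths fall 44 nt short of the transcript lengths. In GENCODE M21 the opposite strand holds AC167363.2, a model still to be tested by experiment, across part of Cdkn1a, and the antisense gene Gm44732 across part of Cdkn1c. Neither is listed in the tables, and reads from them could not be told apart from those of Cdkn1a and Cdkn1c if strand was not used in counting.

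Of the 13 genes around p19Arf, MDM2 and p53, 12 reached 1 TPM in both replicates (median of mean TPM 29.5). Npm1, whose product nucleophosmin holds p19Arf in the nucleolus, led at 5794.59 and 2425.18 TPM and was called higher in replicate 1; it has many near-identical pseudogenes, and how its reads were divided with them was not tested. Trp53, which encodes p53, followed at 92.18 and 160.55, and the death gene Bax at 85.65 and 142.42. Mdm2 stood at 45.35 and 31.35. The lowest were the p53 targets Zmat3 at 3.8 and 3.3 and Trp53inp1 at 0.66 and 0.78. Between the replicates 3 of the 13 were called higher in replicate 2 and 3 in replicate 1, against 7.57% and 11.9% of all genes tested. The calls in this and every other gene list were made with the trend by GC content left in. Over all genes 19.5% were called in that setting and 7.85% with the trend removed. List calls with the trend removed are not given here, so the part of GC content in them stays unknown.

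All 15 genes for the turnover of CIP/KIP proteins were above 10 TPM in both replicates (median 66.2). The clamp gene Pcna, on which p21Cip1 is marked for destruction, stood at 517.81 and 409.71 TPM. Cks1b, the cofactor of SKP2, stood at 249.98 and 325.11, and the CUL4 adaptor gene Ddb1 at 251.86 and 285.87. The lowest were Rnf123 at 24.81 and 56.74 and Cul4b at 53.1 and 21.33. Skp2 itself stood at 50.67 and 46.53 TPM. Of these 15 genes 2, Cul4b and Skp1a, were called higher in replicate 1 and 0 in replicate 2, against 11.9% and 7.57% of all genes. Skp1a, and the called genes named in the next paragraphs, were named after their values were seen.

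Of 18 genes that encode repressors of the INK4-ARF locus, 15 reached 1 TPM in both replicates (median 26.6). Id1 stood at 220.76 and 368.43 TPM, and the PRC2 genes Eed and Ezh2 at 107.98 and 83.91 and at 128.22 and 59.35. Twist1 and Tbx3 had 0 counts in both replicates. Of the 15 repressor genes tested, Ring1 was called higher in replicate 2 and Bmi1, Suz12 and Rnf2 in replicate 1, against 7.57% and 11.9% of all genes. Of 9 activators of the locus, 8 reached 1 TPM (median 17.1). Junb led at 20.3 and 31.02, with E2f1 at 17.08 and 31.51 and E2f3 at 21.71 and 24.58, and Jund at 5.37 and 7.27 and Ets1 at 0.17 and 0.07 were the lowest. Of these, 0 of 9 were called between the replicates by the binomial test at 2-fold, against 19.5% of all genes.

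Of 16 regulators of CIP/KIP, Cdkn2c and Cdkn2d transcription, 14 reached 1 TPM (median 26.1). Myc, a repressor of Cdkn1a together with MIZ1, led at 221.44 and 289.66 TPM. Gfi1b, a transcriptional repressor of red cell precursors, stood at 67.83 and 147.46, and Men1, whose product menin helps to switch on Cdkn1b and Cdkn2c, at 86.84 and 99.97. Gfi1 stood at 0.02 and 0.03 TPM, and Klf4 had 0 counts in both replicates. Of the 14 tested, Gfi1b and Zbtb17 were called higher in replicate 2 and Sp3 in replicate 1, against 7.57% and 11.9% of all genes.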

How the data were processed

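The tables hold deposited values for 2 polyadenylated RNA libraries of MEL cells, 1 group with replicates 1 and 2. The members and gene lists were chosen with earlier results of these data known. Reads were aligned to mm10 and its transcriptome and quantified with GENCODE M4, per the file headers and a deposited text file. The aligner, the quantifier and whether strand was used: not given in the sources used here. Expected counts, as deposited, estimate how many reads came from each gene or transcript. Deposited TPM and FPKM values are scaled by effective length, TPM to a fixed sum per library. Deposited score columns give credibility bounds and the posterior SD of a count, and the deposited percent columns (transcript share of a gene) were recomputed from TPM.

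Symbols, exons and positions came from GENCODE M21 (same build), matched by identifier without version for 42462 of 43346 genes and for all 8 members. Sequences are from GENCODE M21 transcripts and RefSeq promoter windows (GRCm38.p6). Short features (26248, at 0.0574% and 0.131% of counts) and 97 spike-ins were left out of library sizes. The deposited TPM still includes the short features, which held 2.93% of TPM in replicate 1 and 6.24% in replicate 2. Expected counts were rounded and tested where they summed to at least 20. A GC content, the mean over a gene's transcripts in M21, could be assigned to 99% of the genes tested. The trend was fitted by lowess (fraction 0.3). Genes named are all members, their transcripts with at least 1% of TPM, both genes of each ratio, neighbours of members, and of each pathway list the 3 highest, the 2 lowest and those with 0 counts. No gene with a like pattern is named, since 2 samples give none. Alternatives were FPKM, posterior mean TPM, rescaled TPM, other minimums and pseudocounts, other scalings, edgeR's exact test, removal of the GC trend and each replicate left out. The test was tested on simulated data. Tests used scipy 1.17.1, scaling edgeR 4.0.16 and DESeq2 1.42.0 (size factors) in R 4.3.3, lowess statsmodels 0.14.6, and figures matplotlib 3.10.9.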

Additional observations from a re-analysis of the deposited data

How the results depend on the processing

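With 1 group of 2 libraries every spread here rests on 2 values. No paired analysis was possible because the labels give only 1 group. All 8 members reached 1 TPM without replicate 1, and all 8 reached 0.5 TPM in both replicates. In deposited FPKM, another unit, all 8 members had lower values: 154.5 for Cdkn2a, 26.6 for Cdkn2d, 15.4 for Cdkn2c, 12.6 for Cdkn1b, 10.3 for Cdkn3, 9.4 for Cdkn1a, 5.24 for Cdkn1c and 0.845 for Cdkn2b, in the same order as by TPM. Cdkn1c, with the smallest spread, was 7.24 by posterior mean TPM and 7.75 by TPM rescaled to genes. With a pseudocount of 1, Cdk2 over Cdkn1b (log2 1.32) exceeded the spread of single genes on that scale. Leaving out each replicate in turn gave log2 ratios of 0.98 to 1.5 for Cdkn1b over Cdkn1c, 0.48 to 1.61 for Cdkn2d over Cdkn1b, 0.94 to 1.78 for Cdk2 over Cdkn1b, 0.97 to 2.11 for Mdm2 over Cdkn1a and 1.25 to 1.67 for Skp2 over Cdkn1b; each crossed the limit of 1.40. The genes called between replicates, 2976, became 120 with edgeR's exact test and 1186 with the GC trend removed, and the called members stayed at 0 in all settings run. Scaling by total counts moved the median log2 ratio of all genes from 0.02 to 0.14 and the share of calls higher in replicate 2 from 38.8% to 54.5%; it was 46.3% with the GC trend removed and 36.2% with DESeq2 size factors. With total counts Cdkn1c had a log2 ratio of 0.11 and the other 7 members kept their direction. The p19Arf form held 87% of Cdkn2a by expected counts and 86.4% by posterior mean TPM.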

Other observations

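Cdkn1c lies in an imprinted cluster on chromosome 7, a region in which several genes are expressed from 1 parental copy. Of the 11 cluster genes looked at, 6 reached 1 TPM in both replicates (median of mean TPM 10.4). Nap1l4, a histone chaperone gene, stood at 174.91 and 129.39 TPM, the growth-restricting gene Phlda2 at 104.77 and 188.95, and the tetraspanin gene Cd81 at 79.21 and 99.51. Slc22a18, the protein-coding neighbour of Cdkn1c on 1 side, stood at 5.68 and 15.03, and Kcnq1, on the other, at 0.23 and 0.47. Igf2 had 0 counts in both replicates, while H19 had 0 and 1 and Ascl2 0 and 2. Of the 8 cluster genes tested between the replicates, Slc22a18 and Kcnq1 were called higher in replicate 2, against 7.57% of all genes. Kcnq1ot1 (0.86 and 0.31 TPM, named after its values were seen) was called higher in replicate 1, against 11.9%. The Kcnq1 call rests on only 29.74 and 82.06 expected counts. Kcnq1 and Kcnq1ot1 (3344.26 and 1546.68) both have fractional expected counts, and how their reads were divided with other genes was not tested.

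A further list held Mtap, the neighbour of Cdkn2a, and genes linked to CDKs or to Cdkn2a. Of these 8 genes, 7 reached 1 TPM in both replicates (median 40.7). Cdk2ap1 led at 213.92 and 322.95 TPM, with Cdkn2aipnl at 61.21 and 56.44 and Cdk2ap2 at 38.35 and 73.93. Cdk5rap1 at 7.71 and 9.91 was the lowest of those detected, and Cables1 had 0 counts in both replicates. The protein-coding neighbours of the remaining members ranged widely. Srsf3, a splicing factor gene beside Cdkn1a, stood at 364.5 and 216.63 TPM and Rab44, on its other side, at 3.04 and 4.59. Beside Cdkn1b, Gpr19 stood at 6.42 and 8.3 and Apold1 at 0.07 and 0.06. Beside Cdkn2c, Faf1 stood at 39.55 and 27.62, and beside Cdkn3, Cnih1 at 73.7 and 76.4 and Bmp4 at 0.01 and 0. Ap1m2, beside Cdkn2d, stood at 0.36 and 0.72.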
